A study of Mus musculus with 6 samples.

Results

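Insulin-like growth factor (IGF) and insulin signalling was read from 10 genes chosen by symbol from the 22320 genes of the authors' table: the ligand gene Igf1, the receptor genes Igf1r and Insr, the receptor substrate genes Irs1 and Irs2, and the binding protein genes Igfbp2, Igfbp3, Igfbp4, Igfbp5 and Igfbp7. All 10 symbols were found once, and all 10 lay above the level minimum of the moderated test described below. The RNA came from whole testes of mice on postnatal day 1.5, in 3 pools of 4 testes for each of 2 genotypes on a C57BL6/J and 129/SvEv hybrid background. The Arid4bSCKO genotype was Arid4b-/Flox with Amh-cre, and the control genotype was Arid4b+/Flox with Amh-cre. Both groups therefore carried a floxed allele and Cre driven by the promoter of Amh, a Sertoli cell gene, and they differed in the other allele, null or wild type, in every cell of the body. Where a cell type is named below, it is from its marker genes, since the testes were not sorted.

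IGF1 and IGF2 bind the IGF1 receptor, and insulin binds the closely related insulin receptor. Both receptors phosphorylate the docking proteins IRS1 and IRS2, which recruit PI3-kinase and so activate AKT, mTOR complex 1 and the exclusion of FOXO transcription factors from the nucleus. Secreted IGF binding proteins hold most IGF outside cells, and proteases such as pappalysin release it. In the mouse testis the insulin and IGF1 receptors of Sertoli cells are known to be needed for the normal number of these cells and for final testis size.

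The authors' values are 1 mean per group of log2(normalized count + 1), an unadjusted p-value and a false discovery rate (FDR). Levels in single pools were not analysed here, so it is not stated whether the pools of the groups overlap. Differences are given as Arid4bSCKO minus control. The 95% interval and the spread between pools (pooled SD) were worked back from the deposited p-value. Reads counted on the genes of the authors' table came to about 17500000 per library in Arid4bSCKO and 18600000 in control. These are estimates from the group means and the value of a single read, and they leave out reads not assigned to a gene. The targeted gene Arid4b (chromosome 13, 14063784 to 14199603, mm10) stood at mean levels of 8.68 and 10.19, which is 35.1% of control (difference -1.51, 95% interval -1.82 to -1.21, moderated limma adjusted p = 2.23e-05). In the authors' deposited table its FDR was 0.0535, so the targeted gene itself did not reach an FDR below 0.05. All 54 markers of 7 testicular cell types had reads in both groups, so none was at 0.

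A gene was called by either of 2 rules. By the authors' FDR below 0.05 none of the 10 genes passed (0 of 10), where 58 of the 22320 genes, 0.26%, did (0.139% higher and 0.121% lower). The lowest FDR among the 10 in the authors' deposited table was 0.133, for Igfbp5, and 3 of the 10 had an unadjusted p below 0.05, Igfbp3 and Igfbp5 with the higher and Igfbp4 with the lower mean in Arid4bSCKO (20.9% of all genes did, 9.86% higher and 11.1% lower). A moderated test with limma, which shares the spread between genes of like level, called 2 of the 10, Igfbp3 and Igfbp5, both higher in Arid4bSCKO. The same test called 13.8% of the 19095 genes tested, 7.37% as higher and 6.46% as lower. A share of 2 in 10 stands near that background and is no result about the set. The median difference of the 10 genes was 0.11, against -0.04 over all genes tested, and their median absolute difference was 0.25, against 0.24.

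**Figure D1:**
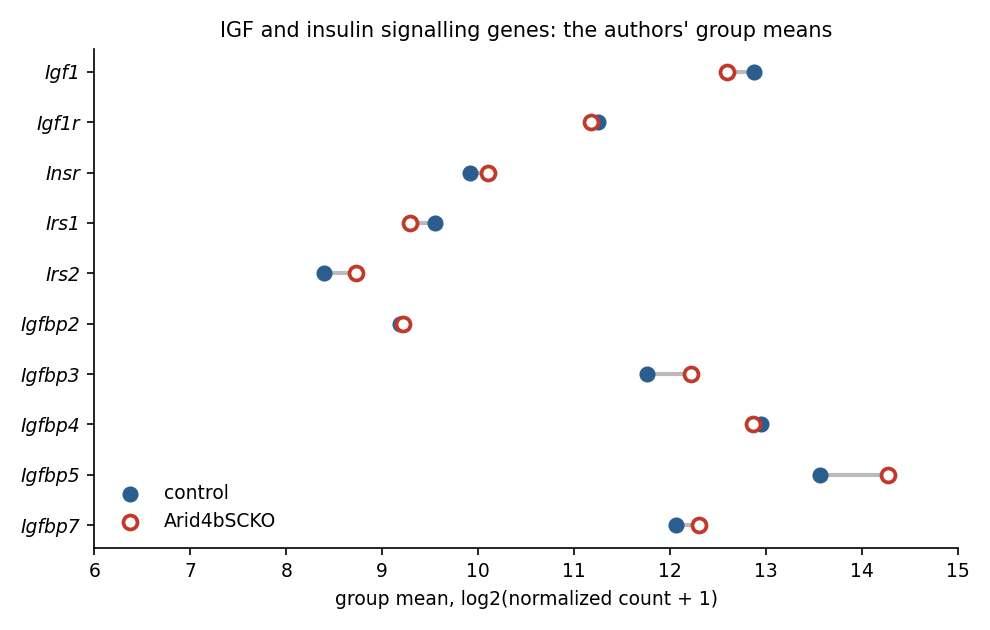
Group means of the 10 genes on the log2(normalized count + 1) scale, as the authors gave them, with filled circles for control and open circles for Arid4bSCKO. The 2 circles are farthest apart for Igfbp5 (13.56 in control and 14.27 in Arid4bSCKO) and nearly coincide for Igfbp2 (9.19 and 9.22).

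The binding protein genes held both called differences. Igfbp5 encodes a matrix-associated binding protein that pappalysin can cleave. Its mean level was 14.27 in Arid4bSCKO and 13.56 in control, which is 19821 against 12097 normalized counts. It rose by 0.71 log2 units (95% interval 0.29 to 1.14), or to 164% of control, at a moderated limma adjusted p of 0.0035. Igfbp3, which encodes the main carrier of IGF1 in blood, stood at 12.22 and 11.76. It rose by 0.46 (95% interval 0.06 to 0.86), or to 138% of control, at a moderated limma adjusted p of 0.0204. In the authors' deposited table the unadjusted p was 0.0098 for Igfbp5 and 0.0337 for Igfbp3, with FDR values of 0.133 and 0.2. Both calls ended (0 of the 10 genes, where 1.24% of all genes were called) when the moderated test used neither a trend over level nor robust fitting (adjusted p = 0.0764 for Igfbp5 and 0.13 for Igfbp3).

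The other 3 binding protein genes were not called. Igfbp7 encodes a binding protein with low affinity for IGFs that is abundant in vessel walls. Its mean level was 12.31 in Arid4bSCKO and 12.06 in control, a difference of 0.24 (95% interval -0.08 to 0.57, moderated adjusted p = 0.13). Igfbp2 stood at 9.22 and 9.19 (difference 0.03, 95% interval -0.58 to 0.64), and its sign changed to -0.04 when a trend over transcript length was removed. Its spread between pools, a pooled SD of 0.27, was the widest of the 10. Igfbp4, which encodes an inhibitory binding protein and the best known substrate of pappalysin, was the reverse case. Its mean levels of 12.87 and 12.95 differed by -0.09 (95% interval -0.15 to -0.03), or 94.2% of control. In the authors' deposited table its unadjusted p was 0.0168. The pooled SD behind it was 0.03, against a median of 0.11 for the 500 genes nearest in level. The moderated test, which draws such a spread towards that of genes of like level, gave an adjusted p of 0.484.

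**Figure D2:**
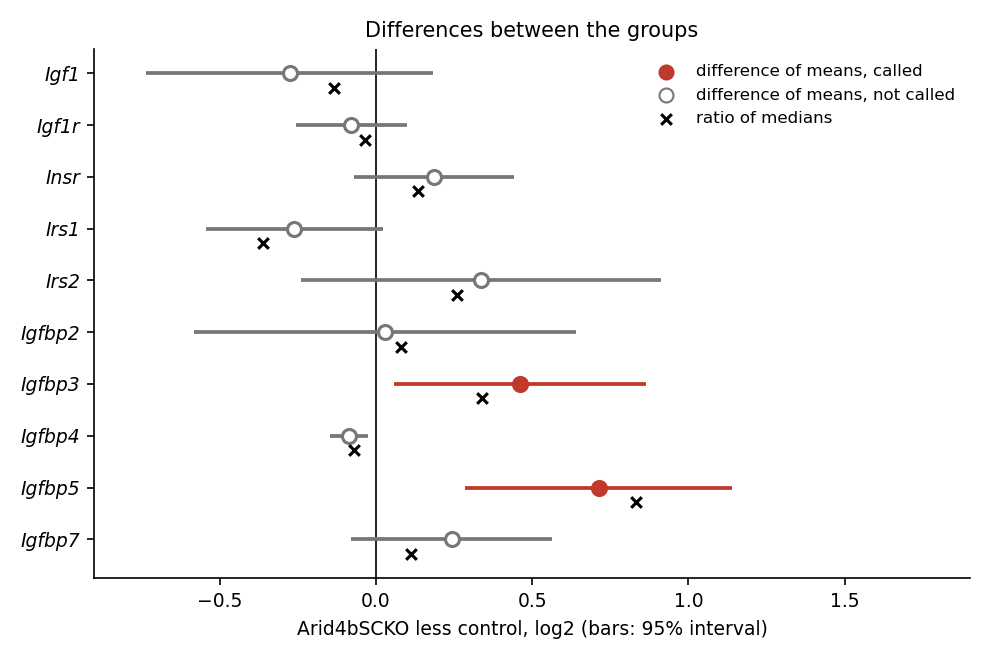
Differences between Arid4bSCKO and control for the 10 genes (circles, with bars for the 95% interval worked back from the deposited p-value) and the authors' log2 ratio of group medians (crosses). Filled circles mark Igfbp3 and Igfbp5, called by the moderated test; the interval of Igfbp4 is narrow and excludes 0, but it was not called.

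The proximal promoters of the 5 binding protein genes are shown because both called genes are among them; whether the 5 genes differ in their change was not tested. Each line gives the 100 bases before the start of the gene in RefSeq (GRCm38.p6, the mm10 assembly), on the strand of the gene, with matches to TATAAA or GGGCGG (either strand) in capitals. The windows are chr1:72874866-72874965 (minus strand) for Igfbp5, chr11:7213924-7214023 (minus) for Igfbp3, chr5:77408046-77408145 (minus) for Igfbp7, chr1:72824380-72824479 (plus) for the first of the RefSeq starts of Igfbp2 and chr11:99041144-99041243 (plus) for Igfbp4.
Igfbp5: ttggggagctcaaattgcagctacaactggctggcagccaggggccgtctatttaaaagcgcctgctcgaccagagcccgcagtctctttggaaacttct
Igfbp3: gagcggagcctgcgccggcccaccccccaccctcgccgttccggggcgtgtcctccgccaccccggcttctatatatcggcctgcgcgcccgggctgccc
Igfbp7: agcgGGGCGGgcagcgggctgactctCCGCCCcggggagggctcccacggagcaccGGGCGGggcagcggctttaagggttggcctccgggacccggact
Igfbp2: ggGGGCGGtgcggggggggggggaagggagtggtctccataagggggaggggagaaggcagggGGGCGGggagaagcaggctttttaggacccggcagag
Igfbp4: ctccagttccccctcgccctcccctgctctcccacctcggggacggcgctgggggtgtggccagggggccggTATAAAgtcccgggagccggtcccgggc

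The TATA box letters, TATAAA, were found in the window of Igfbp4, from position -28 to -23 relative to the gene start, and in 5.56% of 32851 windows of the same length. The GC box letters, GGGCGG, occurred 3 times for Igfbp7 and 2 times for Igfbp2, and in 24.7% of all windows. CCAAT (18.9% of all windows), TGANTCA (the AP-1 site, 2.73%) and TGTTTAC (a forkhead site, 1.12%), searched on both strands, had no match in these 5 windows, and no searched motif overlapped another there. The window before the other RefSeq start of Igfbp2 (chr1:72825287-72825386, plus strand) held 1 AP-1 match, from position -39 to -33, and none of the other motifs. Neither of these windows of Igfbp5 and Igfbp3 held any of the 5 motifs, which says only that these letters are not in them. Among the other 5 genes, a window was matched for Igf1, Igf1r, Irs1 and Irs2, with 2 GC boxes for Igf1r, 1 for Irs2 and 1 AP-1 match for Igf1, whose window starts 2055 bases from the deposited gene start.

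Igfbp5 and Igfbp2 are neighbours on chromosome 1 (72858036 to 72874865 and 72824480 to 72852471), with 5564 bases between them. Igfbp3 and Igfbp1 are neighbours on chromosome 11 (7206091 to 7213923 and 7197787 to 7202546), with 3544 bases between them. In each pair the called gene stood beside one without a call. Igfbp2 differed by 0.03, and Igfbp1, at mean levels of 0.76 and 0.60, was too low to be tested. Whether the differences within a pair are themselves unequal was not tested.

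Per kilobase of transcript, which allows levels to be compared between genes, Igfbp7 was the most abundant of the 5 binding proteins in both groups (4376 normalized counts per kilobase in Arid4bSCKO and 3698 in control). Igfbp5 came next in Arid4bSCKO at 3300, where in control, at 2014, it stood just under Igfbp4 at 2070. Igfbp3 was at 1972 in Arid4bSCKO and 1434 in control, and Igfbp2 at 455 and 445. Summed per kilobase, the 5 genes were at 12052 in Arid4bSCKO and 9661 in control, a ratio of 1.25, and Igfbp5 made up 27.4% of the sum in Arid4bSCKO and 20.8% in control. These sums come from 1 mean per group and carry no test.

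The ligand and its receptors were not called. Igf1, which encodes a ligand of the IGF1 receptor, had a mean level of 12.60 in Arid4bSCKO and 12.87 in control. The difference of -0.28 had a 95% interval of -0.74 to 0.18 (82.6% of control, moderated adjusted p = 0.161). Its pooled SD of 0.20 compares with a median of 0.11 for genes of like level. Igf1 has RefSeq-matched transcripts of 651 to 7052 bases, so its level per kilobase in control could be 4967 with their median length or 1063 with the longest, and it is left out of the order above. Igf1r encodes the receptor for both IGFs. Its levels of 11.17 and 11.25 differed by -0.08 (95% interval -0.26 to 0.10, or 83.8% to 107% of control). That interval covers only the spread between pools and not the choice of processing. The sign turned to 0.10 when a trend of the difference over transcript length was removed. Insr, the insulin receptor gene, stood at 10.10 and 9.92, a difference of 0.19 (95% interval -0.07 to 0.44, moderated adjusted p = 0.236). With the length trend removed it was called higher (0.35, moderated adjusted p = 0.0354). Per kilobase, Igf1r was at 202 and 213 normalized counts in Arid4bSCKO and control, and Insr at 117 and 103.

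The 2 receptor substrate genes had differences of opposite sign, neither of them called. Irs1 was at 9.29 in Arid4bSCKO and 9.55 in control, a difference of -0.26 (95% interval -0.54 to 0.02, moderated adjusted p = 0.13), or 83.5% of control. Irs2, a gene that FOXO factors are known to induce, was at 8.73 and 8.40, a difference of 0.34 (95% interval -0.24 to 0.91, moderated adjusted p = 0.196), or 126% of control. In the authors' deposited table the log2 ratio of group medians was -0.36 for Irs1 and 0.26 for Irs2. That ratio had the sign of the difference of means for all 10 genes, but was over 1.5 times smaller for Igf1 (-0.13), Igf1r (-0.04) and Igfbp7 (0.11), and over 1.5 times larger for Igfbp2 (0.08). Per kilobase the pair was at 68.4 and 67.1 normalized counts in Arid4bSCKO, and at 81.9 and 53.1 in control. With the length trend removed, the difference of Irs1 shrank to -0.10 and that of Irs2 grew to 0.47, still without a call (moderated adjusted p = 0.602 and 0.08). The difference between the changes of the 2 genes was not tested.

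**Figure D3:**
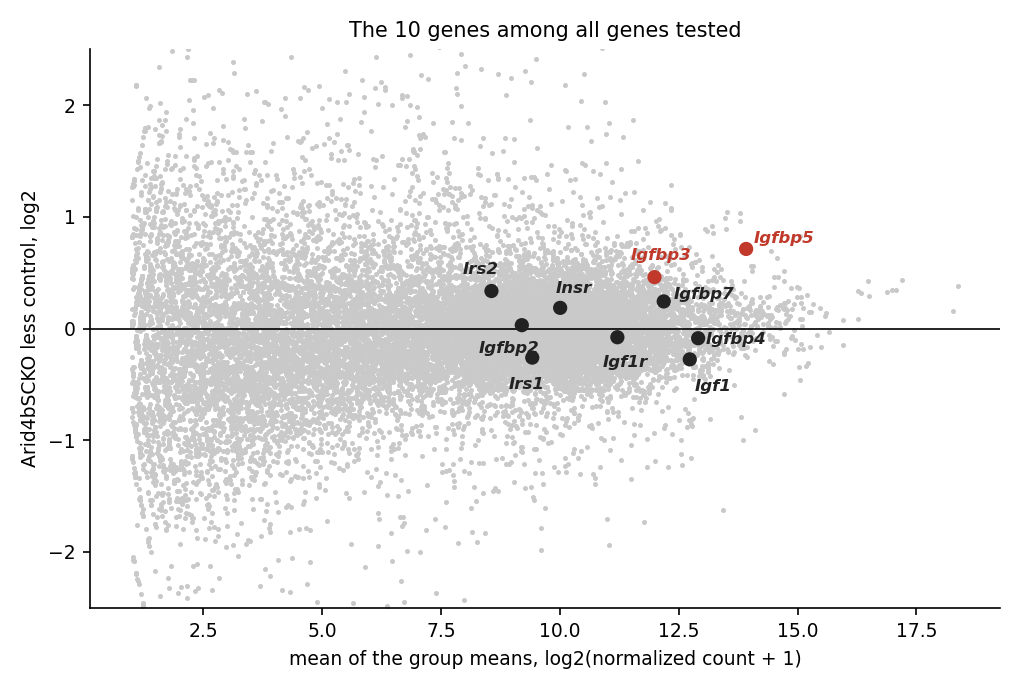
Difference between the groups against mean level for all 19095 genes tested (grey points) with the 10 genes named, those called in red. Igfbp5 lies towards the upper edge of the genes at its level, and the other 9 lie within the cloud; 86 genes fall beyond the axis limit of 2.5 log2 units.

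Other genes of the pathway came from a list of 69, ordered by role. Of the 66 that reached the level minimum, 10 were called by the moderated test, 5 higher and 5 lower. That is 15.2%, against 13.8% of all genes tested, and their median difference was -0.08, against -0.04. None of the 69 (0 genes) passed the authors' FDR, where 15 had an unadjusted p below 0.05, 7 of them higher and 8 lower, near the 9.86% and 11.1% of all genes.

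Outside the cell, 1 of 5 genes for proteases or their inhibitors and 1 of 2 further binding protein genes tested were called higher. Of all genes tested 7.37% were. No call fell on the 2 ligand genes tested or the 3 receptor genes of this list. Pappa encodes pappalysin 1, the protease that cleaves IGFBP4 and IGFBP5. Its mean level was 10.38 in Arid4bSCKO and 9.26 in control. It rose by 1.11 (95% interval 0.74 to 1.49), or to 217% of control, at a moderated limma adjusted p of 2.51e-04, and was called in all 7 alternative settings of the test. Its FDR in the authors' deposited table was 0.084. Of the other genes in its role, Pappa2, Htra1 and the pappalysin inhibitors Stc1 and Stc2, none was called (4 genes, -0.47 to 0.30). Igfbp6 encodes a binding protein that prefers IGF2. It stood at 11.21 and 10.66 and rose by 0.55 (95% interval 0.19 to 0.90, moderated limma adjusted p = 0.00697). That call ended without the trend on level and robust fitting (adjusted p = 0.0882).

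The ligand gene Igf2 stood at 13.49 in both groups. Its difference of 0.00 had a 95% interval of -0.16 to 0.16 and a moderated adjusted p of 0.991. Per kilobase it was at 2908 normalized counts in Arid4bSCKO and 2904 in control, between the 2 control values given above for Igf1. Igf2r, the receptor that clears IGF2, was at 11.49 and 11.67 (difference -0.18, 95% interval -0.52 to 0.15). Ins2 was low, at 2.74 and 2.20 (difference 0.55, 95% interval -0.37 to 1.46). The means of Ins1, 0.40 and 0.39, each equal 1 read in 1 library of the group, so no change was detectable at this depth. Igfals, for the acid-labile subunit that joins IGF and IGFBP3 in blood, was listed at 0 in Arid4bSCKO and at the value of 1 read in 1 control library. Igf2, Igf2r and the receptor brake gene Grb10, at 13.09 and 13.13, are also imprinted genes.

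**Figure D4:**
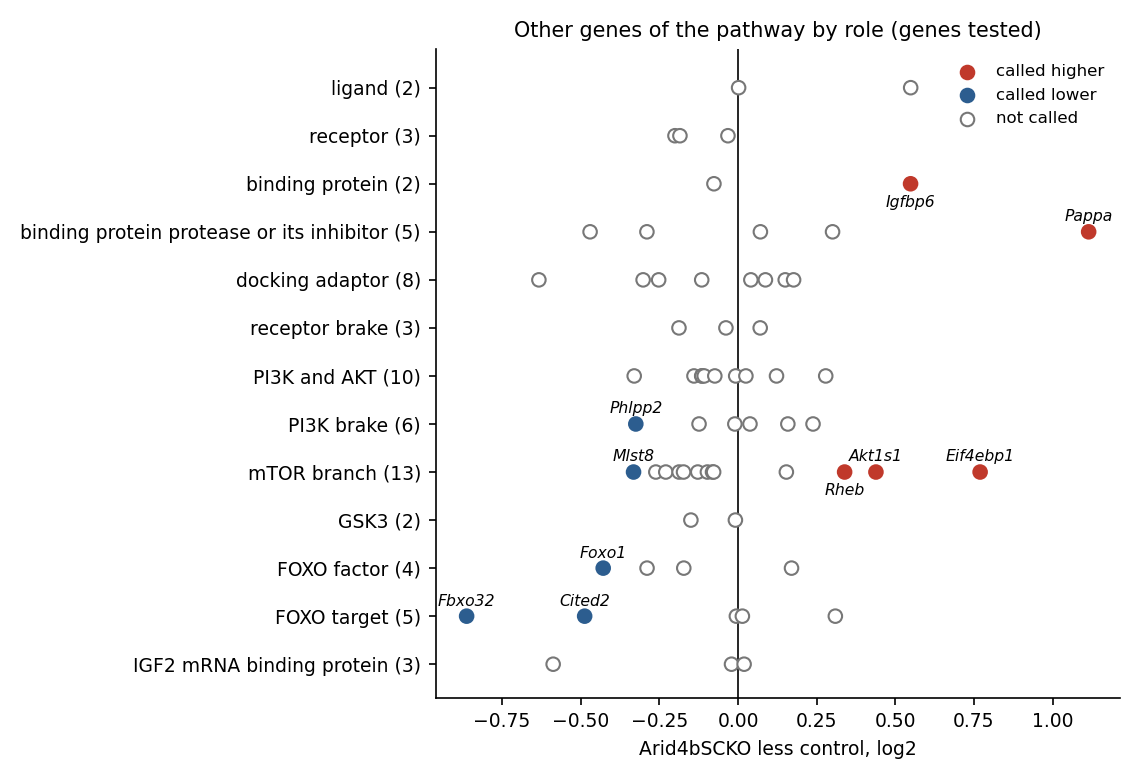
Differences of the 66 other pathway genes tested, 1 circle per gene, by role with the number of genes in brackets. Filled circles were called by the moderated test: 5 higher, with Pappa the farthest right at 1.11, and 5 lower, with Fbxo32 the farthest left at -0.86.

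Inside the cell, the adaptors and the core of the PI3-kinase branch had no call. None of 8 docking adaptor genes, 3 receptor brake genes, 10 PI3-kinase and AKT genes, and 2 GSK3 genes was called. Of all genes tested 13.8% were called, and whether these roles depart from that share was not tested. The differences lay between -0.63 and 0.18 for the docking adaptor genes, and between -0.33 and 0.28 for the 10 PI3-kinase and AKT genes. The authors' unadjusted p was below 0.05 for 2 docking adaptor genes (1 higher and 1 lower) and 1 PI3-kinase or AKT gene (higher). It was not below 0.05 for any receptor brake or GSK3 gene. Among 6 genes that restrain PI3-kinase signalling 1 was called lower, where 6.46% of all genes tested were. This was Phlpp2, which encodes a phosphatase of AKT. It stood at 9.21 and 9.54 and fell by 0.33 (95% interval -0.41 to -0.24, moderated limma adjusted p = 0.0352). The call of Phlpp2 was lost with the length trend removed (difference -0.17, adjusted p = 0.24), after centring on the median gene (adjusted p = 0.055) and without the trend on level and robust fitting (adjusted p = 0.085).

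In the mTOR branch 3 of 13 genes were called higher and 1 lower, where 7.37% and 6.46% of all genes tested were. Most differences were nonetheless negative (9 of 13), with a median of -0.10, against -0.04 over all genes tested. The authors' unadjusted p was below 0.05 for 3 genes with the higher and 3 with the lower mean in Arid4bSCKO (9.86% and 11.1% of all genes). Eif4ebp1 encodes a repressor of translation that mTOR complex 1 inactivates. It was at 11.53 in Arid4bSCKO and 10.76 in control, and rose by 0.77 (95% interval 0.42 to 1.12), or to 170% of control (moderated limma adjusted p = 0.0012). Akt1s1 encodes PRAS40, an inhibitor of mTOR complex 1 and a substrate of AKT. It rose by 0.44 (95% interval 0.25 to 0.63, moderated limma adjusted p = 0.0079), and Rheb, the GTPase that activates the complex, by 0.34 (0.04 to 0.64, adjusted p = 0.0396). Mlst8, a subunit of both mTOR complexes, fell by 0.33 (95% interval -0.51 to -0.15, moderated limma adjusted p = 0.0303). None of the 4 calls held without the trend on level and robust fitting (adjusted p from 0.0587 for Eif4ebp1 to 0.154 for Rheb), and those of Rheb and Mlst8 were also lost with the length trend removed (0.0597 and 0.0729).

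FOXO factors act at the far end of the pathway, and AKT keeps them out of the nucleus. Of 4 FOXO genes 1 was called lower, Foxo1, at 9.85 and 10.28, where 6.46% of all genes tested were called lower. It fell by 0.43 (95% interval -0.79 to -0.07, moderated limma adjusted p = 0.0257). The call of Foxo1, though not its direction, was lost with the length trend removed (difference -0.27, adjusted p = 0.136). It was also lost without the trend on level and robust fitting (adjusted p = 0.126). Of 5 genes listed as FOXO targets 2 were called lower and none (0) higher, against 6.46% and 7.37% of all genes tested. Fbxo32, which encodes the ubiquitin ligase atrogin-1, was at 9.68 and 10.55. It fell by 0.86 (95% interval -1.15 to -0.57), or to 55.0% of control (moderated limma adjusted p = 4.79e-04), and kept its call in all 7 alternative settings. Cited2, a transcriptional coregulator gene, was at 11.03 and 11.52 and fell by 0.49 (95% interval -0.73 to -0.25, moderated limma adjusted p = 0.00533), a call lost without the trend on level and robust fitting (adjusted p = 0.0762). Sesn3, Ccng2 and Bcl6 were not called, at 0.01, -0.01 and 0.31. Irs2, given above as a gene that FOXO factors induce, is not among these 5 and differed by 0.34 without a call. The IGF2 mRNA binding protein genes had no call either, though Igf2bp1 was at 66.5% of control (difference -0.59, 95% interval -1.36 to 0.19).

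Cell type markers moved in the same comparison, so their values stand beside those of Igfbp3, Igfbp5, Igfbp6 and Pappa. By the moderated test 14 of the 54 markers were called higher and 8 lower, where 7.37% and 6.46% of all genes tested were, and by the authors' FDR 0 of the 54 markers and 0 of 10 immediate-early genes were called (in the authors' deposited table the lowest FDR was 0.0656 and 0.0734). All 8 macrophage markers were called higher, with a summed level of 3751 normalized counts in Arid4bSCKO and 2108 in control. Of 12 Sertoli cell markers 6 were called lower and 2 higher (72900 against 118100 summed). Of 5 myoid markers 1 was called higher (25860 against 21320), and of 8 stromal markers 2 were called higher and 1 lower (134300 against 126200). Of 8 endothelial markers 1 was called higher (8003 against 8832), of 7 germ cell markers 1 lower (5560 against 6887), and of 6 fetal Leydig cell markers none (42740 against 43850). Of 10 immediate-early genes 6 were called higher (10170 against 6222 summed). The part of these cell types and genes in the differences above was not tested. In whole testes fewer cells of a type and less RNA per cell cannot be told apart.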

How the data were processed

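Per the labels' protocols, libraries of poly(A) RNA that keep the strand were sequenced as pairs of 50 bases. The submitters' processing notes list STAR 2.4 and mm10. How reads were counted and normalized is not given in the sources used here. Per the file headers, the authors deposited for each gene the mean log2 normalized count of each group, a log2 ratio of group medians, the p-value of a comparison with equal variances and its Benjamini-Hochberg FDR over 22320 genes (recomputed here, largest relative difference 4.78e-05).

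With 4 residual degrees of freedom, the deposited p-value and the difference of means give each gene's variance. This was moderated with limma 3.58.1 in R 4.3.3 (squeezeVar, trend on level, robust) over the 19095 genes whose level, averaged over both groups, reached 1. The resulting two-sided p-values were adjusted over all of them by the Benjamini-Hochberg method, with a threshold of 0.05. This left out 529 rows in which a value of 0.1 appears to have been filled in. The test was checked on simulated data drawn with the spread that the test itself had estimated. That check cannot decide whether the trend on level and robust fitting suit these pools. Because 1 was added to each normalized count, folds of genes with few reads are understated. Separate litters are not named for the pools, so a p-value reflects only how these pools varied, which may be technical.

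Transcript lengths are medians over GENCODE M21 transcripts, matched through RefSeq for 18205 genes and otherwise by symbol for 1710, which gave a length for 17672 of the genes tested. Deposited starts count from 0 and were raised by 1. Promoter windows came from RefSeq and covered 9 of the 10 genes, all but Insr. The 10 genes, the pathway and marker lists and the tests were chosen with earlier results of these data known. The rule for named genes was all 10, then Igf2, Ins1, Ins2, Igf2r and at most 12 other pathway genes called by the moderated test, by smallest adjusted p. Arid4b was named as the targeted gene. Other pathway genes named for context (Igfbp1, Igfals, Grb10, Igf2bp1, the remaining proteases and their inhibitors, and the remaining FOXO targets) were chosen after their values were seen.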

Additional observations from a re-analysis of the deposited data

How the results depend on the processing

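Of the 10 genes, 0 passed the authors' FDR and 3 had an unadjusted p below 0.05, and of the other pathway genes 0 and 15. Readjusting the deposited p over genes at a level of at least 1 also left 0 in both. The moderated counts, 2 and 10, fell to 0 and 2 (Pappa and Fbxo32) with neither a trend over level nor robust fitting, where 1.24% of all genes were called. The other 6 settings (no robust fitting, no level minimum, a minimum of 5 normalized counts, centring on the median gene, and removal of a trend over level or over transcript length) left both counts within 1.5 times. Removing the length trend added Insr to the 10 genes' calls and changed the pathway calls from 5 higher and 5 lower to 5 higher and 2 lower. The 5 higher calls were not the same genes, since Rheb lost its call (moderated adjusted p = 0.0597) and a gene without a call in the main test gained one. Across the 17672 genes with a length, the rank correlation between difference and length was -0.21. Arid4b was called in all 7 settings of the moderated test, but not by the authors' FDR (0.0535). No paired analysis was possible because the table used here gives 1 mean per group, and for the same reason no pool could be left out. The depth limits Ins1, Igfals and Igfbp1, whose means rest on a few reads.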
